A study of Homo sapiens with 6 samples.

Results

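Expression of 10 genes for the enzymes that hydroxylate and crosslink collagen was compared between LX-2FAP and LX-2Vector cells, each with 3 RNA-seq libraries. The genes were taken by name from a table of 60748 genes, and comprise the lysyl oxidases LOX, LOXL1, LOXL2, LOXL3 and LOXL4, the lysyl hydroxylases PLOD1, PLOD2 and PLOD3, and P4HA1 and P4HA2, which encode catalytic α subunits of collagen prolyl 4-hydroxylase. LX-2 is an immortalized human hepatic stellate cell line. LX-2FAP cells stably overexpressed fibroblast activation protein α (FAP), a membrane serine protease, from a lentiviral vector in which a ubiquitin promoter drives the insert, whereas LX-2Vector cells carried the control lentivirus. Cells of both groups were EGFP-marked, puromycin-selected, grown in DMEM with 10% serum and cultured for 24 hours, with no other treatment. The number of clones behind each line and whether the 3 libraries of a group came from separate cultures are not stated in the sources used here, so the p-values measure only the spread between these libraries.

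Collagen chains are modified in the endoplasmic reticulum as they are made. Prolyl 4-hydroxylase converts proline to 4-hydroxyproline, which stabilizes the triple helix at body temperature, and the lysyl hydroxylases convert lysine to hydroxylysine, the residue from which the more stable crosslinks and the sites of collagen glycosylation are built. Outside the cell the lysyl oxidases, which need copper, oxidize lysine and hydroxylysine to the aldehydes that then join neighbouring collagen molecules. Activated stellate cells are the main source of scar collagen in the liver, and crosslinking makes that collagen stiffer and harder to degrade. LOX, PLOD2, P4HA1 and P4HA2 are well-known targets of the hypoxia-inducible factors.

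Promoter windows were searched because members of this pathway are known to respond to hypoxia-inducible factors. A further reason was that a list of hypoxia-responsive genes also averaged lower in the LX-2FAP libraries. The window runs from 250 bases before to 50 bases after each RefSeq start site on GRCh38.p14, and 9 of the 10 genes had one. LOXL2 had none. Each window was searched on both strands for the letters ACGTG and GCGTG, the core of the hypoxia response element; ACGTG also lies inside the E-box CACGTG, which occurred in 0 of these windows. The windows printed here were picked from those that held a match. Capitals mark each match as it reads on the strand of the gene, 5′ to 3′. The first LOX window, chr5:122078210-122078509 on the minus strand, held 4 matches, the PLOD2 window, chr3:146161135-146161434 on the minus strand, held 3, the PLOD1 window, chr1:11934467-11934766 on the plus strand, held 2, and the P4HA1 window, chr10:73096817-73097116 on the minus strand, held 1.
LOX: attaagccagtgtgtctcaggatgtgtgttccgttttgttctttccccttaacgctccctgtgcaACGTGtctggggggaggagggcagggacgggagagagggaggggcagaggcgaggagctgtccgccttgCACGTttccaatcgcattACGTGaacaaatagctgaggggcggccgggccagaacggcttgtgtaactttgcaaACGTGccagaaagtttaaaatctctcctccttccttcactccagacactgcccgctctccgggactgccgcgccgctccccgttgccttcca
PLOD2: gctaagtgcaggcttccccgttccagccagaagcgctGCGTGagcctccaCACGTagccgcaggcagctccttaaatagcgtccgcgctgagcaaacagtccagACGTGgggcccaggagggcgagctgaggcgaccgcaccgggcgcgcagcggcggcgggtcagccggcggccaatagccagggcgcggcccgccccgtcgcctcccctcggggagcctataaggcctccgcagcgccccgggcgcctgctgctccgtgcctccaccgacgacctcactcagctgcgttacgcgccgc
PLOD1: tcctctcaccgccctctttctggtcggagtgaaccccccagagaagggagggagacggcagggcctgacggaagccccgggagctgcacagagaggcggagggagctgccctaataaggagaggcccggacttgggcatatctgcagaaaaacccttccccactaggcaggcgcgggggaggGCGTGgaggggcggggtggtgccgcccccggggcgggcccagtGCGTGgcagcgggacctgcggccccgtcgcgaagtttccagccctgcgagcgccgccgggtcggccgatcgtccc
P4HA1: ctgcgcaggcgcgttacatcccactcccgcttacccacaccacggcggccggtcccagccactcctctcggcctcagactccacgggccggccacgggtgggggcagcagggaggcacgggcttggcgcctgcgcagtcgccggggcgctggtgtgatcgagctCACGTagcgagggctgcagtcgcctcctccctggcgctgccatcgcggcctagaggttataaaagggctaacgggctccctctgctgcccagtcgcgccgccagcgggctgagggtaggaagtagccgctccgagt

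Of 35116 promoter windows of the same length, 48.4% held at least 1 such match, 23.1% at least 2, 10.1% at least 3 and 4.4% at least 4. The LOX matches began 185, 116, 98 and 42 bases before the start site. A pair of further LOX start sites had windows that overlap each other, and both held the same 2 matches. The windows of P4HA2, LOXL1, LOXL4 and PLOD3 held 0, and the start sites of LOXL3 held 0 and 1. A match is a run of letters and not a measured binding site, and no binding was measured here.

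The libraries held 17355700 to 26352060 counted reads, and 18275 genes were counted deeply enough to be tested. All 10 genes were among them. FAP itself checked the labels, with 42 to 55 reads in the LX-2Vector libraries and 14805 to 15160 in the LX-2FAP libraries (log2 fold change of LX-2FAP over LX-2Vector, log2FC, 8.33, SE 0.13, adjusted p = 4.47e-16 by edgeR's quasi-likelihood test with Benjamini-Hochberg adjustment over all tested genes). Of the stellate cell markers, VIM averaged 1545 and 1695 CPM (reads of a gene per 1000000 counted reads) in the LX-2Vector and LX-2FAP libraries, PDGFRB 24.9 and 19.1, and ACTA2, the smooth muscle actin of activated stellate cells, 3.82 and 2.94, while LRAT, the retinol-esterifying enzyme of quiescent stellate cells, was at 0 in all 6 and COL1A2 averaged 1.17 and 1.06. COL1A1 averaged 306 and 232 CPM. TAGLN, at 13.7 and 14.9 CPM, and HAND2, at 1.59 and 1.915 CPM, averaged higher in the LX-2FAP libraries, and DES was at 0.028 and 0.032 CPM. Of 9 stellate markers, 7 were tested, VIM was called higher and COL1A1 and PDGFRB lower. The summed level of 4 hepatocyte markers lay between 0.151 and 0.50 CPM, with TTR at 0, and that of 3 epithelial markers between 0.705 and 1.25 CPM. Summed endothelial markers lay at 6.95 to 8.74 CPM in the LX-2Vector and 5.23 to 6.83 CPM in the LX-2FAP libraries, with VWF called lower, and 4 leukocyte markers at 10.98 to 16.2 CPM over all libraries, with C1QA at 0. Whether other cells had a part in the enzyme levels was not tested. On the first principal component, which carried 36.2% of the variance, the LX-2Vector libraries lay at -12, -11.6 and -20.7. The LX-2FAP libraries lay at 1.9, 25.4 and 17. On this axis, LX-2Vector replicate 3 and LX-2FAP replicate 1 lay furthest from the rest of their groups. Libraries were also compared in pairs by a scaled chi-square, which is higher for less similar counts. Within LX-2FAP it set replicate 1 apart, at 4.37 from replicate 2 and 3.18 from replicate 3, against 2.06 between those. Within LX-2Vector it did not single out replicate 3, which was closer to replicate 2 (2.63) than replicate 1 was (3.21). LX-2Vector replicates 1 and 3 were the least similar (5.02).

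All 10 genes averaged lower in LX-2FAP than in LX-2Vector cells, by small amounts for most of them. Of these, 2 passed the test across all genes, LOXL2 and PLOD1, which fell by 14.3% and 12.1%. LOX and LOXL4 had the largest differences, with log2FC of -0.87 and -0.91, and neither passed. The levels of LOXL1 and PLOD3 differed least, with log2FC of -0.09 for both.

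By count, 2 of the 10 were lower and 0 higher at an adjusted p under 0.05 (edgeR, Benjamini-Hochberg), whereas 2.73% of all tested genes were called lower and 5.29% in either direction. A log2FC below 0 was found for 10 of 10, against 53.0% of tested genes, and the median over the 10 was -0.20, against -0.01 over all tested genes. At an unadjusted edgeR p under 0.05, 7 of the 10 were lower, against 11.6% of tested genes. DESeq2's Wald test put 3 of the 10 under 0.05, all lower, and 3023 of its 41175 genes in either direction. For 5 of the 10, every LX-2FAP library lay below every LX-2Vector library, as it did for 13.4% of tested genes. At an unadjusted edgeR p under 0.05 with a fold change over 1.2, a cutoff taken from the study, LOX, LOXL3 and LOXL4 were lower. These were 3 of the 10, against 6.44% of tested genes. LOXL2 and PLOD1 changed by less than that fold. For LOX, LOXL3 and LOXL4, DESeq2's Wald test gave unadjusted p of 0.0614, 0.149 and 0.0966, so by that test they did not meet the cutoff. Bulk RNA cannot tell fewer cells that express a gene from less of its RNA in each cell.

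**Figure D1:**
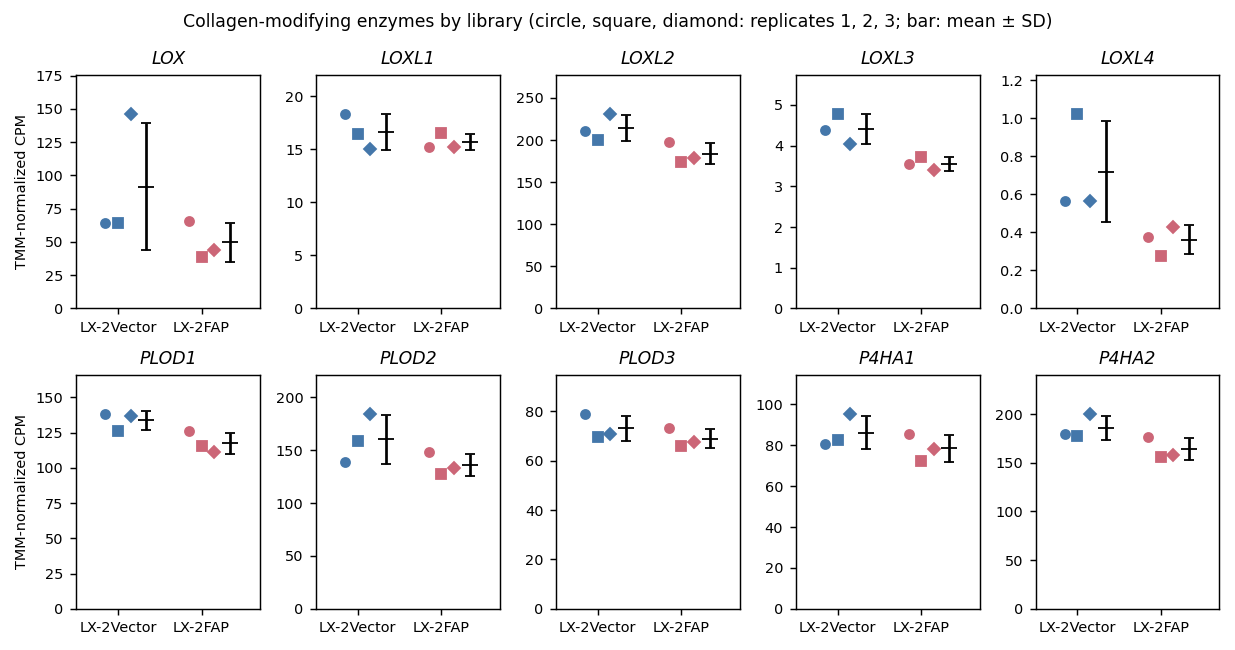
Each panel plots 1 enzyme gene, with its level in CPM (normalized by the trimmed mean of M-values) on the vertical axis from 0 and the LX-2Vector and LX-2FAP libraries as single points (circle, square and diamond for replicates 1, 2 and 3), beside bars for the mean ± SD of 3 libraries. LOX reached 147 CPM in LX-2Vector replicate 3 alone, and the groups do not overlap for LOXL2, LOXL3, LOXL4, PLOD1 and P4HA2.

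LOXL2 crosslinks collagen IV of basement membranes as well as fibrillar collagen, and was the most abundant lysyl oxidase. The gene (ENSG00000134013) lies on GRCh38 chromosome 8 at 23297189-23425328, on the minus strand. Its level was 211, 200.1 and 231 CPM in the LX-2Vector libraries and 198, 174 and 179 CPM in the LX-2FAP libraries. The groups did not overlap, although LX-2FAP replicate 1 lay just under the lowest LX-2Vector library. The means were 214 ± 15.9 and 184 ± 12.6 CPM (SD, n = 3 each), a log2FC of -0.22 (SE 0.06, adjusted p = 0.0339 by edgeR's quasi-likelihood test). This call was lost without LX-2FAP replicate 2 (log2FC -0.18, edgeR adjusted p = 0.158), LX-2FAP replicate 3 (-0.20, 0.188), LX-2Vector replicate 1 (-0.23, 0.0730) or LX-2Vector replicate 3 (-0.16, 0.136), and held without either of the remaining libraries. Of the exon bases of LOXL2, 2.1% are shared with ENTPD4 on the same strand.

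LOX, the founding member of the family, is secreted as a proenzyme and acts on fibrillar collagen and elastin. The gene (ENSG00000113083) lies at chr5:122063195-122078360 on the minus strand. Its level was 64.0, 64.3 and 147 CPM in the LX-2Vector libraries and 66.0, 38.9 and 44.1 CPM in the LX-2FAP libraries. LX-2Vector replicate 3 was at 2.29 times the mean of the other LX-2Vector libraries, and LX-2FAP replicate 1 lay above both of those, so the groups overlapped. The means were 91.6 ± 47.6 and 49.7 ± 14.4 CPM, with a log2FC of -0.87 (SE 0.25, edgeR adjusted p = 0.0528). Without LX-2Vector replicate 3 the log2FC was -0.35 (edgeR adjusted p = 0.170), and without LX-2FAP replicate 1 it was -1.14 (edgeR adjusted p = 0.0113). LOX was thus the gene of the 10 whose size of difference turned most on single libraries.

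The other lysyl oxidases were less abundant. LOXL1, which is tied to elastic fibre assembly, was at 18.4, 16.5 and 15 CPM in the LX-2Vector and 15.2, 16.5 and 15.2 CPM in the LX-2FAP libraries, so that the groups overlapped (log2FC -0.09, SE 0.09, edgeR adjusted p = 0.575). LOXL3 was at 4.39, 4.79 and 4.04 CPM against 3.55, 3.72 and 3.39 CPM. Every LX-2FAP library was lower, and counts were 67 to 116 reads in a library, but the difference did not pass (log2FC -0.31, SE 0.13, edgeR adjusted p = 0.179). LOXL4 was barely detected, with 15, 18 and 12 reads in the LX-2Vector and 9, 5 and 9 reads in the LX-2FAP libraries. The groups did not overlap, and the log2FC of -0.91 had an SE of 0.36 (edgeR adjusted p = 0.144). Of the exon bases of LOXL3, 19.3% overlap DOK1 or HTRA2 on the other strand, 9.2% of those of LOXL1 overlap LOXL1-AS1, 7.6% of those of PLOD3 overlap ZNHIT1 and 6.4% of those of P4HA2 overlap P4HA2-AS1. Whether the counting used strand is not stated, so reads from these stretches cannot be assigned to one gene with certainty.

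PLOD1, the lysyl hydroxylase that acts mainly on lysines of the collagen triple helix, was the other gene called. The gene (ENSG00000083444) lies at chr1:11934205-11975538 on the plus strand and shares no exon bases with another gene. Its level was 138, 126 and 137 CPM in the LX-2Vector libraries and 126, 115 and 112 CPM in the LX-2FAP libraries. The groups nearly touched, with 126.28 CPM in LX-2Vector replicate 2 and 125.91 CPM in LX-2FAP replicate 1. The means were 134 ± 6.52 and 118 ± 7.45 CPM, with a log2FC of -0.19 (SE 0.05, edgeR adjusted p = 0.0492). The adjusted p lay close to the threshold, and the call was lost without LX-2FAP replicate 2 (log2FC -0.17, edgeR adjusted p = 0.180), LX-2FAP replicate 3 (-0.15, 0.282), LX-2Vector replicate 1 (-0.16, 0.133) or LX-2Vector replicate 3 (-0.16, 0.135).

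PLOD2 hydroxylates the telopeptide lysines, from which the crosslinks typical of fibrotic collagen are made. The gene (ENSG00000152952) lies at chr3:146069440-146163653 on the minus strand. It was at 138, 158 and 184 CPM in the LX-2Vector libraries and 148, 127 and 134 CPM in the LX-2FAP libraries. LX-2Vector replicate 3 was the highest and LX-2Vector replicate 1 lay among the LX-2FAP libraries. The log2FC was -0.23 (SE 0.08, edgeR adjusted p = 0.0954), with -0.11 without LX-2Vector replicate 3 (edgeR adjusted p = 0.388) and -0.33 without LX-2Vector replicate 1 (edgeR adjusted p = 0.0339), where it was called. PLOD3, which also glycosylates hydroxylysine, was at 79.0, 69.6 and 71.0 CPM against 73.3, 65.9 and 67.6 CPM. Its groups overlapped, and the log2FC was -0.09 (SE 0.06, edgeR adjusted p = 0.400).

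P4HA1 and P4HA2 each assemble with P4HB, the β subunit, into the active tetramer. P4HA2 (ENSG00000072682, chr5:132191838-132295315, minus strand) was at 179.8, 177 and 200.2 CPM in the LX-2Vector and 177, 156 and 158 CPM in the LX-2FAP libraries. The groups touched without overlap, with 177.10 CPM in LX-2Vector replicate 2 and 176.64 CPM in LX-2FAP replicate 1 (log2FC -0.18, SE 0.06, edgeR adjusted p = 0.0658). Without LX-2FAP replicate 1 it was called (log2FC -0.24, edgeR adjusted p = 0.0106), and without LX-2Vector replicate 3 the log2FC shrank to -0.12 (0.260). P4HA1 (ENSG00000122884, chr10:73007217-73096974, minus strand) was at 80.5, 82.8 and 95.4 CPM against 85.4, 72.2 and 78.2 CPM. Its groups overlapped and its log2FC was -0.13 (SE 0.07, edgeR adjusted p = 0.274), with -0.04 (0.772) once LX-2Vector replicate 3 was left out and -0.07 (0.653) once LX-2FAP replicate 2 was. P4HB averaged 521 and 499.99 CPM, with a log2FC of -0.06 (edgeR adjusted p = 0.405).

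**Figure D2:**
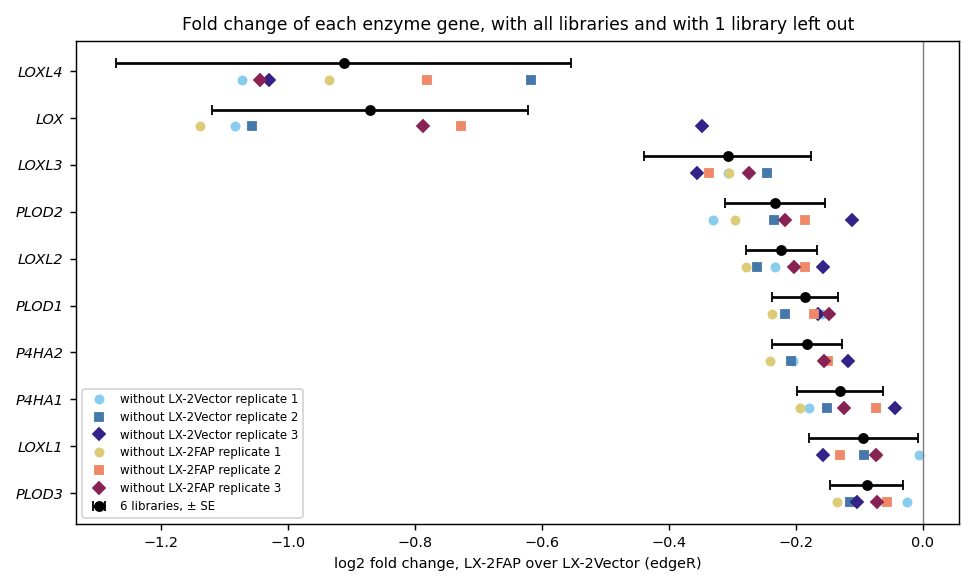
The horizontal axis gives the log2 fold change (log2FC) of LX-2FAP over LX-2Vector for each of the 10 genes from edgeR, as a black point ± SE for all 6 libraries and as coloured symbols for fits with 1 library left out. Every point lies below 0, and the symbols spread most for LOX (-1.14 to -0.35) and LOXL4 (-1.07 to -0.62).

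The calls among the 10, like those among all genes, turned on which library was left out. Without LX-2FAP replicate 1, 5 of the 10 genes were called (LOX, LOXL2, P4HA2, PLOD1 and PLOD2), against 10.4% of all tested genes. Without LX-2Vector replicate 2, 3 were called (LOX, LOXL2 and PLOD1), against 3.54%. Without LX-2Vector replicate 1, 2 were called (LOX and PLOD2), against 2.09%. Leaving out replicate 3 of LX-2Vector, or replicate 2 or 3 of LX-2FAP, edgeR called 0 of them, with 6 at an unadjusted p under 0.05 in each. Those fits called 2.12%, 0.687% and 0.138% of all tested genes. With limma on log2(FPKM + 1), FPKM being fragments per kilobase of gene per 1000000 fragments, 0 of the 10 were called. That fit called 2 of all tested genes, and 7 of the 10 had an unadjusted p under 0.05. LX-2Vector replicate 3 was the highest of the 6 libraries for LOX, LOXL2, PLOD2, P4HA1 and P4HA2, and LX-2FAP replicate 1 was the highest of the LX-2FAP libraries for 7 of the 10 genes.

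Per length, in FPKM, LOXL2 was the most abundant of the 10 genes in the LX-2Vector libraries (36.1 ± 2.69), followed by P4HA1 (28.1 ± 2.67), PLOD1 (25.3 ± 1.15), PLOD2 (21.1 ± 3.10), P4HA2 (18.5 ± 1.28), LOX (16.5 ± 8.60), PLOD3 (13.0 ± 0.844), LOXL1 (4.60 ± 0.449), LOXL3 (0.983 ± 0.0842) and LOXL4 (0.202 ± 0.0751; SD, n = 3). LOXL2 stood clear of P4HA1 in every library, and LOXL1, LOXL3 and LOXL4 stood clear of each other and of the rest. P4HA1 and PLOD1 were separated by only 26.11 against 26.08 FPKM at their closest, and from PLOD1 down to PLOD3 each gene overlapped the next in the LX-2Vector libraries. In the LX-2FAP libraries LOX (8.77 ± 2.57) averaged below PLOD3 (12.0 ± 0.702), the only change of order among the means. It rests on LX-2Vector replicate 3, where LOX was at 26.44 and PLOD3 at 12.65 FPKM, since LOX was already below PLOD3 in LX-2Vector replicates 1 and 2 (11.47 and 11.61 against 13.97 and 12.41 FPKM). The place of P4HA2 depends on the length used, since its deposited FPKM imply a gene of 10128 bases where the merged exons of GENCODE release 29 hold 8502, and with the latter its LX-2Vector mean would be 22.0 FPKM.

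The sums over a family are descriptions and were not tested. The lysyl oxidases came to 53.0, 51.4 and 70.7 FPKM in the LX-2Vector and 49.4, 40.9 and 42.3 FPKM in the LX-2FAP libraries. Every LX-2FAP library lay below every LX-2Vector library, and the excess in LX-2Vector replicate 3 was mostly LOX, which made up 37.4% of the sum there and 16.8% to 23.6% in the others. LOXL2 held 55.2% to 66.7% of the sum in the LX-2Vector and 66.2% to 70.1% in the LX-2FAP libraries. The lysyl hydroxylases came to 58.2, 57.3 and 62.9 FPKM against 55.4, 49.2 and 49.7 FPKM, also without overlap. Their mean proportions differed between groups by less than the SD among LX-2Vector libraries, with PLOD1 at 42.6% ± 1.92 and 42.5% ± 0.903 of the sum, PLOD2 at 35.4% ± 3.87 and 34.2% ± 0.775, and PLOD3 at 21.9% ± 1.97 and 23.4% ± 0.291. P4HA1 and P4HA2 together came to 43.9, 44.7 and 51.1 FPKM against 44.6, 38.2 and 40.3 FPKM, which overlapped, and the ratio of P4HA1 to P4HA2 stayed between 1.47 and 1.62 in all 6 libraries. The ratio of P4HB to that sum was 1.02 ± 0.0709 in LX-2Vector and 1.08 ± 0.0780 in LX-2FAP cells, a difference within the SD.

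**Figure D3:**
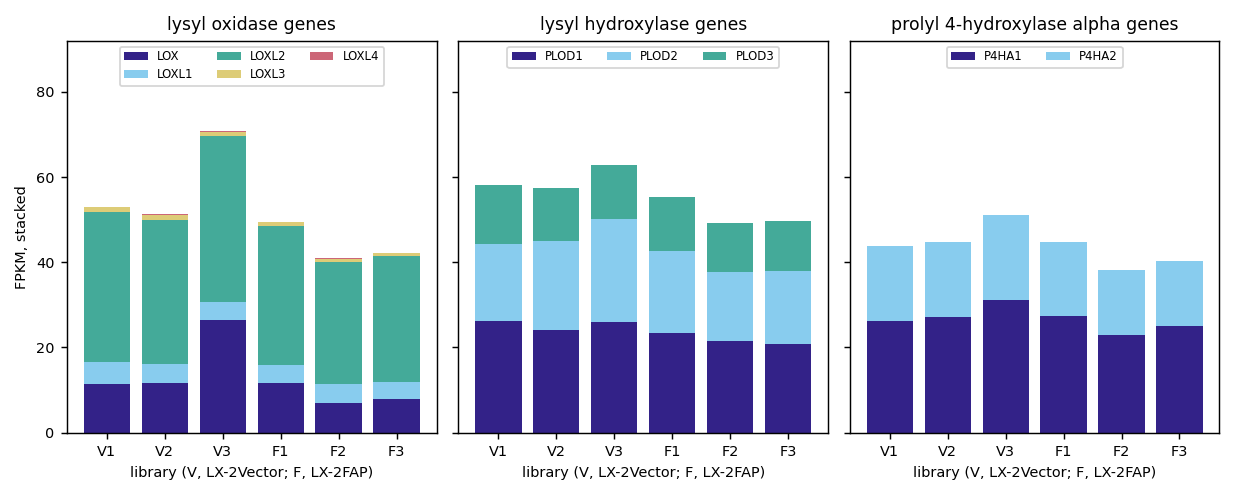
Stacked bars give the FPKM of each gene in each library (V, LX-2Vector; F, LX-2FAP; replicates 1 to 3) for the lysyl oxidases, the lysyl hydroxylases and the prolyl 4-hydroxylase α subunits, on axes from 0. The lysyl oxidase stack was tallest in LX-2Vector replicate 3, at 70.7 FPKM, and within the lysyl hydroxylase stack PLOD2 made up 31.1% in LX-2Vector replicate 1 and 38.7% in LX-2Vector replicate 3.

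Several genes had a profile over the 6 libraries very close to that of LOXL2, the member with the lowest p. Measured as the root mean square difference of centred log2 CPM, the nearest of 11556 candidate genes were HLA-B (0.0122), ACBD7 (0.0187), TRIM56 (0.0193), OPTN (0.0215) and SFXN3 (0.0220). HLA-B encodes a class I antigen-presenting chain whose reads may be shared with related HLA genes, and OPTN encodes the autophagy receptor optineurin. Among the enzyme genes the closest pair was LOXL2 and P4HA2 (0.0266), and the next was P4HA1 and P4HA2 (0.0471). With 6 libraries and so many candidates, these distances describe likeness and carry no test.

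Genes for other steps of collagen folding, processing and crosslinking were read from a list of 30, of which 26 were tested. Of these, 4 were called lower and 0 higher, against 2.73% of all tested genes called lower, and the median log2FC over the list was -0.12. Split by place of action, a division made after the values were seen, 0 of 17 genes acting in the endoplasmic reticulum were called by edgeR (3 had an unadjusted p under 0.05, and log2FC ran from -0.23 to 0.21) and 4 of 9 tested genes acting outside the cell were called. The collagen chaperone SERPINH1 had a log2FC of -0.12 (edgeR adjusted p = 0.134), PPIB, a prolyl isomerase, of 0.11 (0.230), and FKBP14, another, of 0.21 (0.101). Whether the split itself differs beyond chance was not tested.

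EFEMP2, or fibulin-4, which is needed for LOX to crosslink elastin and collagen, was at 70.7, 66.9 and 75.04 CPM in the LX-2Vector and 60.4, 50.2 and 51.9 CPM in the LX-2FAP libraries. All LX-2FAP libraries were lower, and EFEMP2 fell by 0.39 on the log2 scale (SE 0.07, edgeR adjusted p = 0.00765). BMP1, the protease that removes the procollagen C-propeptide and also cuts the LOX proenzyme, was at 49.2, 49.1 and 53.2 CPM against 43.6, 35.6 and 38.9 CPM. Its groups did not overlap, and it fell by 0.35 (SE 0.07, edgeR adjusted p = 0.0117). PCOLCE, which enhances BMP1 activity on procollagen, was at 8.21, 9.97 and 9.45 CPM against 6.72, 6.39 and 5.54 CPM, and fell by 0.55 (SE 0.11, edgeR adjusted p = 0.0144). ADAMTS14, an N-propeptide protease, was at 2.80, 2.17 and 2.44 CPM against 1.75, 1.11 and 1.15 CPM, and fell by 0.87 (SE 0.21, edgeR adjusted p = 0.0268). Its relative ADAMTS2 had a log2FC of -0.52 (edgeR adjusted p = 0.0539). Leaving out LX-2FAP replicate 3, none of EFEMP2, BMP1, PCOLCE and ADAMTS14 was called (adjusted p = 0.0748, 0.0932, 0.114 and 0.159 in that order). BMP1, PCOLCE and ADAMTS14 were also lost without LX-2FAP replicate 2 (0.0615, 0.0541 and 0.116), and ADAMTS14 without LX-2Vector replicate 1 or 3 (0.102 and 0.0544).

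Of 17 collagen and elastin genes, with both fibrillar and non-fibrillar collagens, 15 were tested, 8 were called lower and 0 higher. Of all tested genes 2.73% were called lower. The median log2FC of the list was -0.32, against -0.01. The number called was 4 when LX-2Vector replicate 3 was left out, 2 and 1 when replicate 2 or 3 of LX-2FAP was, and 5 by DESeq2. Those leave-out fits called 2.12%, 0.687% and 0.138% of all tested genes, and DESeq2 called 2.60% of 41175. COL1A1 was at 316, 275 and 328 CPM in the LX-2Vector and 265, 199 and 232 CPM in the LX-2FAP libraries. No library of the groups overlapped, and COL1A1 fell by 0.40 on the log2 scale (SE 0.08, edgeR adjusted p = 0.0135), a call lost without LX-2FAP replicate 2 (0.0555), LX-2FAP replicate 3 (0.0864) or LX-2Vector replicate 1 (0.0543). COL3A1 fell by 0.69 (SE 0.12, edgeR adjusted p = 0.00765; 0.0693 without LX-2FAP replicate 3), and COL6A2 by 0.39 (SE 0.06, edgeR adjusted p = 0.00386), which held without any 1 library. COL5A1, COL5A2, COL6A1, COL7A1 and COL16A1 were the others called. Of these, COL5A1, COL5A2, COL7A1 and COL16A1 were not called without LX-2Vector replicate 3, where the log2FC of COL5A1 went from -0.52 to -0.31 (edgeR adjusted p = 0.0813). Among the genes that did not pass were COL1A2 (log2FC -0.13), COL4A1 (-0.03) and COL8A1 (-0.02).

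A list of 32 hypoxia-responsive genes, many of them for glycolysis and glucose uptake, also averaged lower in the LX-2FAP libraries. Of 30 tested, 11 were called lower and 0 higher, against 2.73% of all tested genes called lower, 30 had a log2FC below 0, against 53.0%, and the median was -0.25. The number called was 3 when LX-2Vector replicate 3 was left out and 4 by DESeq2. It was 17 and 1 when replicate 1 or 2 of LX-2FAP was left out, and 0 by edgeR when replicate 3 was (17 at an unadjusted p under 0.05). Of all tested genes, 2.12% were called without LX-2Vector replicate 3, and 10.4%, 0.687% and 0.138% without LX-2FAP replicate 1, 2 or 3. DESeq2 called 2.60% of 41175 genes. NDRG1, a strongly hypoxia-induced gene, was at 131, 123 and 243 CPM in the LX-2Vector and 120.2, 63.7 and 66.8 CPM in the LX-2FAP libraries, a pattern with the same high and low libraries as LOX. It fell by 0.98 on the log2 scale (SE 0.23, edgeR adjusted p = 0.0249), and the call was lost without LX-2FAP replicate 2 (0.107), LX-2FAP replicate 3 (0.147) or LX-2Vector replicate 3 (log2FC -0.59, 0.0638). ALDOC, a glycolytic aldolase, fell by 0.81 (SE 0.15, edgeR adjusted p = 0.010; 0.0775 without LX-2FAP replicate 3). PDK1, SLC2A1, LDHA, PGK1, ENO2, PFKFB3, PFKFB4, DDIT4 and MIR210HG were also called lower. With limma on log2(FPKM + 1), 0 genes of the hypoxia-responsive, substrate and other collagen-processing lists were called.

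LX-2Vector replicate 3 was the highest of the 6 libraries for 86.7% of the tested hypoxia-responsive genes and 80% of the collagen substrates. It was so for 50% of the enzyme genes and 30.8% of the other collagen-processing genes, against 20.3% of all tested genes. LOXL1, LOXL3, LOXL4 and PLOD3 were lower in that library than the mean of LX-2Vector replicates 1 and 2, at 0.861, 0.881, 0.708 and 0.956 times it. PLOD1 was at 1.03 times that mean. The median deviation of the enzyme genes from their own mean, in log2(CPM + 0.5), was 0.08, 0.02 and 0.16 in the LX-2Vector and 0.01, -0.17 and -0.14 in the LX-2FAP libraries. That of the hypoxia-responsive genes was 0.05, 0.07 and 0.25 against 0.02, -0.21 and -0.15, so both lists were highest in LX-2Vector replicate 3 and lowest in LX-2FAP replicate 2. The part of hypoxia-responsive expression in the lower enzyme levels was not tested, and oxygen and cell density were not given for the libraries.

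**Figure D4:**
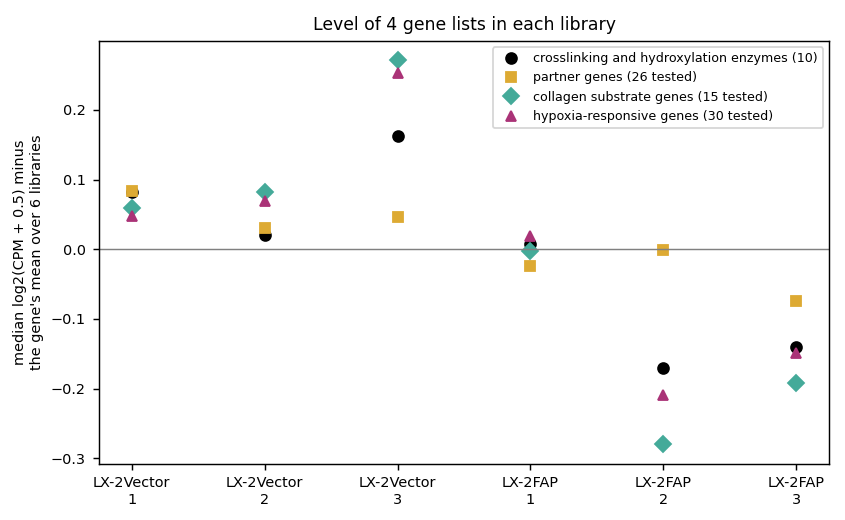
For each library on the horizontal axis, symbols give the median over a gene list of log2(CPM + 0.5) minus the gene's own mean over 6 libraries. The enzyme genes, the collagen substrates and the hypoxia-responsive genes all stood highest in LX-2Vector replicate 3 (0.16, 0.27 and 0.25) and lowest in LX-2FAP replicate 2 (-0.17, -0.28 and -0.21), while the other collagen-processing genes varied less.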

How the data were processed

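Per the labels and the study's methods, total RNA was sequenced from 3 LX-2Vector and 3 LX-2FAP libraries after ribosomal RNA depletion, before which the methods also describe a poly(A) selection. The authors aligned reads with HISAT2 2.0.5 and counted them per gene with featureCounts 1.5.0-p3, and the deposited table gives these whole-read counts together with FPKM that the authors computed from count and gene length. The labels name hg18, but 58337 of the Ensembl identifiers are in GENCODE release 29 on GRCh38, whose coordinates are given here. FPKM were used for levels between genes and for the limma alternative.

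Counts were filtered with filterByExpr (minimum count 10), scaled by the trimmed mean of M-values (TMM) and fitted in edgeR 4.0.16 under R 4.3.3 (quasi-likelihood F-test), with Benjamini-Hochberg adjustment over 18275 genes and a threshold of 0.05. The code was tested on simulated counts with known changes. It recovered 44% of genes changed 1.2-fold, 68% at 1.5-fold, 94% at 2-fold and 100% at 3-fold. Of its calls, 6.7% were false, so small changes are often missed. With 3 against 3 libraries an exact permutation test could not go below 0.1 and was not used. Depth was 17355700 to 26352060 counts, and precision of single genes is limited by 3 libraries a group.

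The 10 enzyme genes were named in full, with every called gene of the list of other collagen-processing genes, and examples from the other lists. Members and lists were chosen with earlier results of these data known, and so give no independent evidence of direction. Alternatives were DESeq2 1.42.0, other scalings and filters, limma 3.58.1 on log2(FPKM + 1) and log2(FPKM + 0.1), stricter and looser thresholds, the replicate number as a block, and each library left out. Promoter sequences are from RefSeq (GRCh38.p14).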

Additional observations from a re-analysis of the deposited data

How the results depend on the processing

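FAP kept its direction and call in every alternative, with log2 fold changes of 6.27 to 8.45. Leaving out 1 library gave log2 fold changes of 8.17 to 8.45 for FAP and moved the genes called from 26 to 1949, the enzyme genes called from 0 to 5, the other collagen-processing genes from 0 to 7, the collagen substrates from 1 to 10 and the hypoxia-responsive genes from 0 to 17. At an adjusted p under 0.01, 116 genes, 0 enzyme genes, 1 other collagen-processing gene, 2 substrates and 0 hypoxia-responsive genes were called. With limma on log2(FPKM + 1) or log2(FPKM + 0.1), 2 genes and 0 of every list were called. With no filter on low counts, 1606 of 41175 genes (3.90%), 5 enzyme genes and 18 hypoxia-responsive genes were called. That fit gave LOX an SE of 0.054 and an edgeR adjusted p of 8.21e-54, although its groups overlapped. The main fit gave an SE of 0.249 and an edgeR adjusted p of 0.0528, so calls of the unfiltered fit need caution. Scaling by library size alone called 4 enzyme genes (LOX, LOXL2, P4HA2 and PLOD1), against 5.73% of all tested genes. It shifted the median of all genes to -0.04, with 60.6% of genes below 0 against 53.0%. DESeq2 size factors in edgeR called 3 enzyme genes (LOX, LOXL2 and PLOD1), against 5.76% of all tested genes. DESeq2's Wald test called 2 enzyme genes (LOXL2 and PLOD1), 5 substrates and 4 hypoxia-responsive genes, against 2.60% of 41175 genes. At an unadjusted p under 0.05 it had 3 enzyme genes, and 3023 of the 41175. The 10 enzyme genes stayed below 0 in every alternative that tested them, and LOXL4 was not tested where 10 counts were required in every library. With the replicate number as a block, 975 genes and 2 enzyme genes were called. To look for pairing by number, the log2 CPM of each library was taken as a deviation from its group mean. Over genes, these deviations correlated at -0.039, 0.044 and -0.01 between same-numbered libraries. For 0 of 6 libraries was the best-correlated library of the other group the one with the same number. No pairing was seen, although 3 libraries a group cannot exclude it. The cause of these shifts was not tested. LOXL4 and LOXL3 had the fewest reads of the 10, with 5 to 18 and 67 to 116 in a library, and whether depth set their missed calls was not tested.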
